A study of Homo sapiens with 6 samples.

Results

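HLF and 9 further genes of the circadian output were followed in human forebrain organoids exposed to amyloid-β. The 10 genes are HLF, DBP, TEF, NFIL3, PER1, PER2, PER3, NR1D1, NR1D2 and BHLHE40, and each was found by its symbol among the 18056 genes of the deposited table. HLF was chosen by its p-value in the contrast of Aβ42 with vehicle, where it ranks 4 among the genes that were higher, and the other 9 were taken with it as relatives and clock genes. The values of HLF in this contrast are therefore given as a description and support nothing. All 10 passed the filter on low counts, and 13842 genes passed it in all. The organoids were dorsal forebrain aggregates grown from DYR0100, an induced pluripotent stem cell line of wild-type genotype, and every library carries this background. In the control group 3 libraries came from vehicle-treated organoids, and in the exposed group 3 libraries came from organoids given 5 µM Aβ42, the aggregation-prone amyloid-β peptide. Both groups were treated for 6 days and belong to 1 batch. All libraries derive from that 1 line, the number of organoids per library is not in the labels, and neither is the hour of harvest, which matters for genes that can cycle over the day.

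In the circadian clock of mammals, CLOCK and BMAL1 (listed here as ARNTL) bind E-boxes and switch on the PER and CRY genes, whose proteins then inhibit CLOCK and BMAL1. The REV-ERB receptors NR1D1 and NR1D2 repress transcription at the element that ROR receptors activate, and BHLHE40 competes for E-boxes. HLF, DBP and TEF are the PAR bZIP activators, which carry the clock's rhythm to output genes through the D-box, and NFIL3 represses at the same element. In brain the PAR bZIP factors are known for their control of pyridoxal kinase, which makes the active form of vitamin B6 needed for neurotransmitter synthesis, and mice without them have seizures.

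Libraries held 16465390 to 16742958 estimated counts each, so depth differed little. Aβ42 replicate 2 stood apart from the other exposed libraries. Its chi-square per gene against vehicle replicate 1 was 3.16, below its values against Aβ42 replicate 1 (9.4) and Aβ42 replicate 3 (8.48), and its limma quality weight was 0.395 against 1.001 to 1.63 in the other 5 libraries. The log2 fold change of each of the 10 genes is therefore also given without that library, and that of other genes by counts per list. Values per library are CPM, counts scaled to the library size with TMM factors, and differences are log2 fold changes of Aβ42 over vehicle with their standard error (SE) from edgeR's quasi-likelihood fit over all 13842 genes. In that fit 0 genes had an adjusted p-value under 0.05, 3302 had an unadjusted one, and the smallest adjusted value was 0.0684. As no label ties a library to a separate culture, p-values measure the spread between these libraries, which may be technical. In bulk RNA fewer cells of a type and less RNA per cell cannot be told apart.

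Promoter sequences are shown first because the clock acts on these genes through short DNA elements near their starts. RefSeq promoters (GRCh38.p14) matched all 10 genes with 15 windows of the 250 bases before a start, since several genes have more than 1 start. Each window was searched on both strands for CACGTG (E-box), CACGTT (the weaker E-prime box), TTATGTAA or TTACGTAA (D-box), AGGTCA (core of the ROR and REV-ERB element) and TGACGTCA (cyclic AMP response element). None of these motifs contains another. An E-box lay in 5 of the 15 windows and in 6.34% of the 35116 windows of that length in the table. The D-box letters lay in 2 of 15 windows and 0.94% of all windows, the E-prime box in 2 of 15 and 4.55%, the AGGTCA core in 2 of 15 and 12.1%, and the cyclic AMP response element in 0 of 15 and 1.65%. By gene, 4 of the 10 had an E-box (TEF, PER1, NR1D2 and BHLHE40), 2 a D-box (PER3 and NR1D2) and 2 an E-prime box (PER2 and NR1D1). Over the 11307 tested genes in the table these shares were 11.2%, 0.822% and 6.83%. A match is a description of letters, not of a bound site.

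These 8 windows are the window of the first listed HLF start, which holds none of the motifs, and those of 7 genes that hold an E-box, E-prime box or D-box. They run 5′ to 3′ on the gene's strand, and capitals mark a match on either strand. HLF is at chr17:55264710-55264959 (plus strand). TEF is at chr22:41367205-41367454 (plus), where the E-box begins 195 bases before the start. PER1 is at chr17:8152405-8152654 (minus), with an E-box at 173 and an AGGTCA core, read on the other strand, at 144 bases before the start. PER2 is at chr2:238288611-238288860 (minus), with an E-prime box at 197. PER3 is at chr1:7784041-7784290 (plus), with a D-box at 177. NR1D1 is at chr17:40100590-40100839 (minus), with an E-prime box, read on the other strand, at 168. NR1D2 is shown at its other start, chr3:23945871-23946120 (plus), with E-boxes at 155 and 105 and a D-box, read on the other strand, at 194. BHLHE40 is at chr3:4979187-4979436 (plus), with an E-box at 245.
HLF: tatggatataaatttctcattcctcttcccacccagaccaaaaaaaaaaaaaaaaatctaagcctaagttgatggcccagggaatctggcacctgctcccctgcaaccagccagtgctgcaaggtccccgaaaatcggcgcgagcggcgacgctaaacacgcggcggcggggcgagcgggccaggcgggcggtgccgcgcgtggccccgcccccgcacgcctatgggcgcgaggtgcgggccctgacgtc
TEF: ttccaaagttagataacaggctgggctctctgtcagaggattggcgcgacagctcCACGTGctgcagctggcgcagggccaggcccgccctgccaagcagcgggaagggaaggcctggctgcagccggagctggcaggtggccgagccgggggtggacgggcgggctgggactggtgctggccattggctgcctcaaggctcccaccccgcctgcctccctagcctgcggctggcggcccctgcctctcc
PER1: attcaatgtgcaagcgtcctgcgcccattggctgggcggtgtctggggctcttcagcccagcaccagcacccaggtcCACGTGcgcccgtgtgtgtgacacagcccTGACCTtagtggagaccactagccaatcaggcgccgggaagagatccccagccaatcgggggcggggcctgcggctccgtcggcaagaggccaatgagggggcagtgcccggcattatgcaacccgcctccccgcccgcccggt
PER2: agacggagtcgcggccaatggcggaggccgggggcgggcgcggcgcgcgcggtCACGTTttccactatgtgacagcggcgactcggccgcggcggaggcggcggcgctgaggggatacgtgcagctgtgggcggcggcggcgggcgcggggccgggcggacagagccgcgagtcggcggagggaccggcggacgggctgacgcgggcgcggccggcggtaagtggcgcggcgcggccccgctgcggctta
PER3: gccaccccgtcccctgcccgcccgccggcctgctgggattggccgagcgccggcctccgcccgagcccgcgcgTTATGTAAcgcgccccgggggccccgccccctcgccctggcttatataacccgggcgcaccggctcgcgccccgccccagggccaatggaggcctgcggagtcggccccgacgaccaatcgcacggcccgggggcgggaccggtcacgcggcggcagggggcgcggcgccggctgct
NR1D1: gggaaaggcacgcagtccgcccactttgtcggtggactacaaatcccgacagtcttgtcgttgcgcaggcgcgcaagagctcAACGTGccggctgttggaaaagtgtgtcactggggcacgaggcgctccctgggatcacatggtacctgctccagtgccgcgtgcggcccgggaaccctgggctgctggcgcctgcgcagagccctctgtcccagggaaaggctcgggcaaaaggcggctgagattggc
NR1D2: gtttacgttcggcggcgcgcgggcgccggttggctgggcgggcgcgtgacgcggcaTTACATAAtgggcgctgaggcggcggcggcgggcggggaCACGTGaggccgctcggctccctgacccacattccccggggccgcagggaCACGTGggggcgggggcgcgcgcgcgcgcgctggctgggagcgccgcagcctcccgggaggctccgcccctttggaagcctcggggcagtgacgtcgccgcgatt
BHLHE40: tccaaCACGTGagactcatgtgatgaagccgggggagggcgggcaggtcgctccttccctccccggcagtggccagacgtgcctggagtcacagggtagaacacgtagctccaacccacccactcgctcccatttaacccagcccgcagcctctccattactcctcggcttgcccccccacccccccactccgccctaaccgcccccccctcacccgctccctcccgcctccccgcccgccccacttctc

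In vehicle organoids the repressor NFIL3 was the most abundant of the 10 per transcript length, and HLF the least. Levels compared between genes are the deposited TPM, which is scaled for length. NFIL3 stood at 107.3 ± 15.5 TPM (mean ± SD, n = 3), above 87.9% of the tested genes, and NR1D2 followed at 29.9 ± 0.60 TPM. BHLHE40 (17.5 ± 4.53), DBP (17.4 ± 2.67), PER3 (16.4 ± 0.54), TEF (15.7 ± 0.92) and PER1 (14.9 ± 0.93 TPM) formed a middle group in which each gene's range over the 3 libraries overlapped that of the next. PER2 was lower at 8.34 ± 0.55 TPM, then NR1D1 at 6.57 ± 0.62 TPM, and HLF was last at 5.07 ± 0.28 TPM, above 17.3% of the tested genes. The ranges of PER1 and PER2, of PER2 and NR1D1, and of NR1D1 and HLF did not overlap. With Aβ42 the first 4 places were the same, and HLF at 9.28 ± 1.77 TPM lay in place 9, level with PER2 at 9.27 ± 0.80 TPM.

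**Figure D1:**
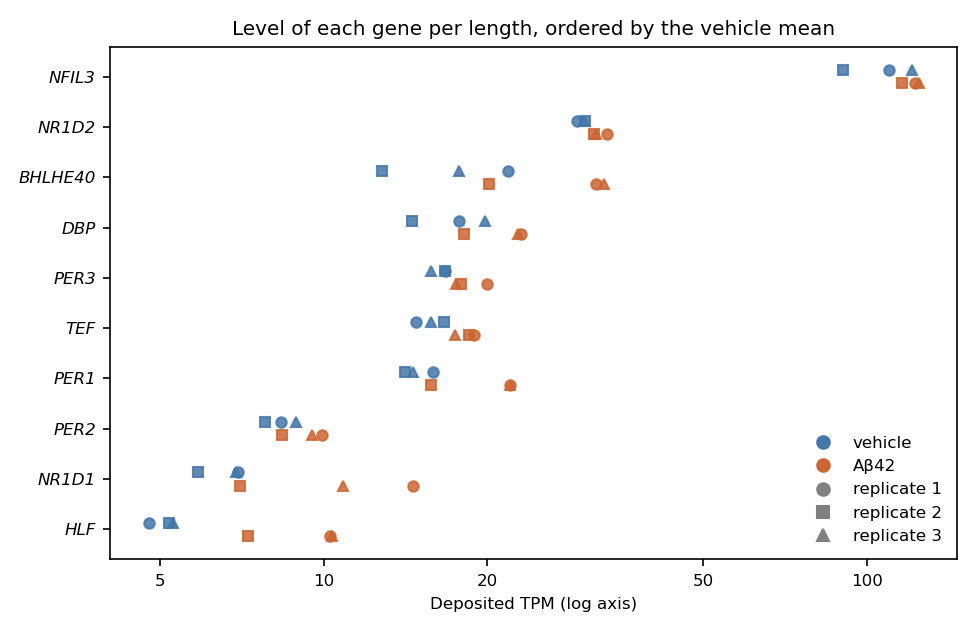
Deposited TPM of each gene in every library on a log axis (blue, vehicle; orange, Aβ42; symbol shape, replicate number), ordered by the vehicle mean. NFIL3 (90.6 to 121.3 TPM in vehicle) lies far above the rest and HLF (4.76 to 5.28 TPM in vehicle) is lowest.

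HLF, the hepatic leukemia factor (Entrez gene ID 3131, chr17:55264960-55325187), is a PAR bZIP activator that is also known from a leukemia fusion gene and from blood stem cells. HLF stood at 10.03, 10.82 and 10.79 CPM in the 3 vehicle libraries, in the order of their numbers, and at 22.7, 15.5 and 23.0 CPM in those with Aβ42. The vehicle libraries lay within a narrow band and every Aβ42 library was above it, with replicate 2 nearest to vehicle. The mean went from 10.6 ± 0.45 to 20.4 ± 4.25 CPM, a 1.93-fold difference and the largest log2 fold change of the 10 genes (0.95 ± 0.15 SE). These values, with the edgeR adjusted p-value of 0.0684, are what chose the gene. The log2 fold change was 1.11 without Aβ42 replicate 2 and 0.94 with the replicate number as a block. That pairing of libraries is not in the labels and was inferred from these data, a limit on every value given with the block. HLF counts were whole numbers in all 6 libraries, from 167 to 383, and counting error in the lowest was 7.74%.

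The other PAR bZIP activators, DBP and TEF, were higher with Aβ42 by a smaller factor than HLF. TEF (thyrotroph embryonic factor, Entrez gene ID 7008, chr22:41367455-41399326) was at 24.9, 27.4 and 26.0 CPM in vehicle and at 32.3, 31.5 and 30.7 CPM with Aβ42. Its groups did not overlap, and it was the only one of the 10 genes in which Aβ42 replicate 2 was not the lowest exposed library. The log2 fold change of TEF was 0.27 ± 0.07 (edgeR adjusted p-value 0.0777), it passed with the replicate block (0.0223), and it was 0.27 with an adjusted p-value of 0.0212 without Aβ42 replicate 2. DBP (D-box binding protein, 1628, chr19:48630030-48637379) was at 11.4, 9.06 and 11.6 CPM in vehicle and at 14.1, 11.2 and 14.5 CPM with Aβ42. Its groups overlapped through Aβ42 replicate 2, which lay between the vehicle values. For DBP the log2 fold change was 0.31 ± 0.13 (edgeR adjusted p-value 0.193, and 0.0538 with the block), 0.42 without Aβ42 replicate 2 (0.0253) and 0.20 without vehicle replicate 2 (0.504). DBP counts were not whole in any library. In the GENCODE v29 annotation 23.0% of its exonic bases lie under exons of SPHK2 on the opposite strand, a gene whose mean was 14.5 ± 0.99 CPM without and 12.5 ± 1.85 CPM with Aβ42, a log2 fold change of -0.21. The labels name a stranded library protocol, but whether counting used strand is not given in the sources used here, so reads could have been divided between DBP and SPHK2.

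Per length, HLF made up a larger share of the PAR bZIP activators with Aβ42. Of the summed TPM of HLF, DBP and TEF, HLF held 12.8%, 14.3% and 12.9% in the vehicle libraries and 19.6%, 16.49% and 20.5% in the exposed ones. The groups did not overlap, as follows in part from the choice of HLF. The sum of the 3 activators was 38.2 ± 2.38 TPM in vehicle and 48.9 ± 4.42 TPM with Aβ42.

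NFIL3, the repressor that shares the D-box with them (Entrez gene ID 4783, chr9:91409045-91483497), was also higher on average with Aβ42, but its groups overlapped. It was at 78.4, 63.3 and 84.7 CPM in vehicle and at 88.8, 83.1 and 92.3 CPM with Aβ42. Vehicle replicate 2 was far below the other 5 libraries, and vehicle replicate 3 was above Aβ42 replicate 2. NFIL3 had a log2 fold change of 0.22 ± 0.10 (edgeR adjusted p-value 0.202). It was 0.11 without vehicle replicate 2 (adjusted p-value 0.472), 0.26 without Aβ42 replicate 2 (0.160), and 0.23 with the replicate block, where it passed (0.0197). Dividing the summed activator TPM by the NFIL3 TPM gave 0.339, 0.401 and 0.337 for the vehicle libraries and 0.426, 0.378 and 0.405 for the exposed ones. The ranges overlapped, since for number 2 the vehicle ratio was the higher, and the means were 0.359 ± 0.036 and 0.403 ± 0.024. The sum includes HLF, which this contrast chose, so the higher mean ratio follows in part from that choice.

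The period genes encode the repressors of the clock's negative feedback, and PER1 is also an early response gene of cyclic AMP and glucocorticoid signals. PER1 (Entrez gene ID 5187, chr17:8140472-8152404) was at 28.5, 24.7 and 26.1 CPM in vehicle and at 40.4, 28.6 and 41.5 CPM with Aβ42. Aβ42 replicates 1 and 3 were well above every vehicle library, while Aβ42 replicate 2 lay just above vehicle replicate 1. PER1 had a log2 fold change of 0.48 ± 0.13 (edgeR adjusted p-value 0.0974), it passed with the replicate block (0.00213), and it was 0.63 without Aβ42 replicate 2 (0.000294). PER2 (8864, chr2:238244044-238300065) was at 21.0, 19.2 and 22.0 CPM in vehicle and at 25.3, 21.1 and 24.7 CPM with Aβ42. Its groups overlapped, and its log2 fold change of 0.20 ± 0.09 had the highest adjusted p-value of the 10 genes (edgeR, 0.227, and 0.113 with the block). Without Aβ42 replicate 2 it was 0.27 (0.0353). PER3 (8863, chr1:7784291-7845177), the period gene with the least part in keeping the rhythm, was at 41.2, 40.5 and 38.2 CPM in vehicle and at 48.1, 44.0 and 44.9 CPM with Aβ42. Its groups did not overlap, although the difference was small, with a log2 fold change of 0.19 ± 0.06 (edgeR adjusted p-value 0.118, and 0.0593 with the block). Without Aβ42 replicate 2 it was 0.22 (0.0319). In GENCODE v29 13.4% of the exonic bases of PER3 lie under exons of UTS2 on the opposite strand, and its count was not whole in 1 library, so the limit on strand given for DBP holds here too.

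**Figure D2:**
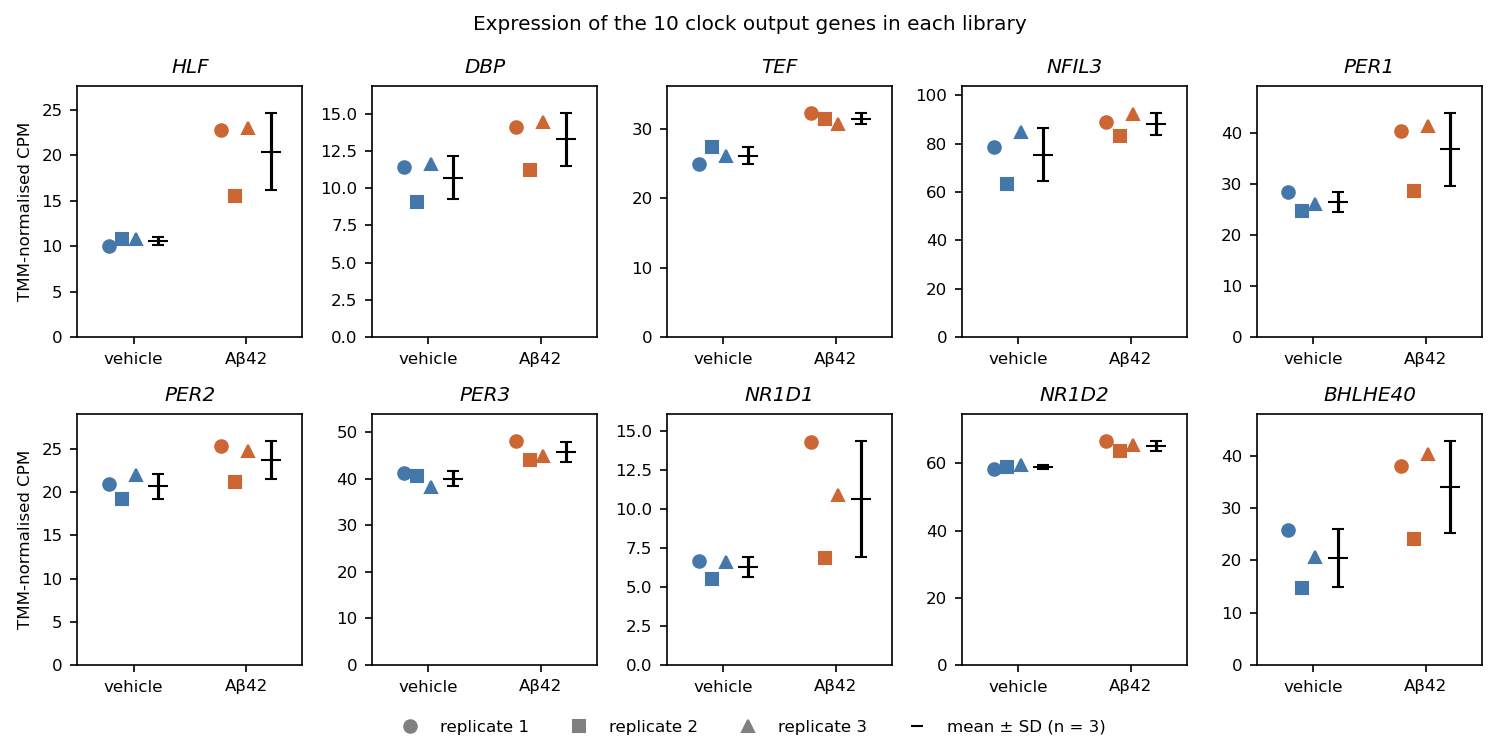
TMM-normalised CPM of the 10 genes by group, with a symbol for each replicate number and a bar for the mean ± SD (n = 3). HLF, TEF, PER1, PER3, NR1D1 and NR1D2 show no overlap between groups, and Aβ42 replicate 2 (square) is the lowest exposed library in every panel but TEF.

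Of the REV-ERB receptors, the less abundant NR1D1 differed by more than NR1D2. NR1D1 (Entrez gene ID 9572, chr17:40092793-40100589) was at 6.67, 5.53 and 6.59 CPM in vehicle and at 14.3, 6.83 and 10.9 CPM with Aβ42. The exposed libraries were spread widely, and Aβ42 replicate 2 lay barely above vehicle replicate 1. NR1D1 had a log2 fold change of 0.76 ± 0.24 (edgeR adjusted p-value 0.119), it passed with the replicate block (0.00356), and it was 1.002 without Aβ42 replicate 2 (0.000697) but 0.50 without Aβ42 replicate 1 (0.301). NR1D1 had no library with a whole count, at 90.6 to 234.3 estimated counts. In GENCODE v29 9.49% of its exonic bases lie under exons of the thyroid hormone receptor gene THRA on the opposite strand, whose mean was 251.2 ± 8.22 CPM without and 268.6 ± 25.8 CPM with Aβ42, a log2 fold change of 0.10. The share of NR1D1 reads that came from THRA was not tested. NR1D2 (9975, chr3:23945286-23980617) was at 58.3, 59.0 and 59.5 CPM in vehicle and at 66.7, 63.7 and 65.4 CPM with Aβ42. Its libraries were the tightest of the 10 genes, with an SD of 1.02% of the mean in vehicle and 2.27% with Aβ42, and the groups did not overlap. Its log2 fold change was 0.15 ± 0.05 (edgeR adjusted p-value 0.127, and 0.101 with the block), the smallest of the 10, and 0.16 without Aβ42 replicate 2 (0.0429).

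BHLHE40, an E-box repressor also known as DEC1 and as a target of hypoxia-inducible factor (Entrez gene ID 8553, chr3:4979437-4985323), followed the replicate number as much as the group. It was at 25.8, 14.8 and 20.7 CPM in vehicle and at 38.0, 24.1 and 40.3 CPM with Aβ42. Replicate 2 was the lowest of its group in both, and Aβ42 replicate 2 lay below vehicle replicate 1. The log2 fold change of BHLHE40 was 0.74 ± 0.27 (edgeR adjusted p-value 0.183), and with the replicate block it was 0.74 ± 0.08 with the smallest adjusted p-value of the 9 genes beside HLF (9.70e-05). Without Aβ42 replicate 2 it was 0.94 (0.0502). The 16 listed hypoxia-induced genes, which do not include it, summed to 2057, 1189 and 1705 CPM over the vehicle libraries and to 2446, 2095 and 2385 CPM over the exposed ones, with vehicle replicate 2 again lowest. Its part in the BHLHE40 difference was not tested.

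All 10 genes had a log2 fold change above 0, as did 50.7% of all tested genes, and the median log2 fold change was 0.29, beside 0.0032 over all tested genes. Of the 10, 6 had groups that did not overlap, all higher with Aβ42, where 13.6% of all tested genes did the same. An unadjusted p-value under 0.05 with a higher level was found for 8 of the 9 genes beside HLF, and for 12.4% of all tested genes. Because the contrast itself chose HLF and the list was proposed with these results known, nothing is read from these shares. At an adjusted p-value of 0.05, 0 of the 9 passed in edgeR's test (0.0% of all genes), 5 passed with the replicate block (TEF, NFIL3, PER1, NR1D1 and BHLHE40, where 7.12% of all genes passed as higher), and 2 passed in DESeq2 (PER1 and NR1D1, where 3.01% did). Without Aβ42 replicate 2 the count was 7, all but NFIL3 and BHLHE40, where 11.6% of all genes passed as higher. It was 0 when any other library was left out. With limma quality weights 6 passed (background 8.75%), without replicate 2 of both groups 4 passed (8.34%), and with no filter on low counts 0 passed (1.09%).

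Within each replicate number every one of the 10 genes was higher in the Aβ42 library than in the vehicle library, as were 25.6% of all tested genes. The differences in log2 CPM for HLF were 1.17, 0.51 and 1.08 for numbers 1 to 3. For DBP they were nearly the same at 0.306, 0.305 and 0.309, although its groups overlapped. In 8 of the 10 genes the difference was smallest for number 2, for DBP only by a near tie. The share of all tested genes with that order was not taken, so nothing is read from this count. NFIL3 was the gene with its largest difference for number 2 (0.39, against 0.18 and 0.12). BHLHE40 had differences of 0.55, 0.70 and 0.96. Replicate 2 was the lowest exposed library for 9 of the 10 genes and the lowest vehicle library for 6 (DBP, NFIL3, PER1, PER2, NR1D1 and BHLHE40), where the corresponding shares of all tested genes were 38.0% and 35.1%. HLF was not among the latter: vehicle replicate 1 was its lowest control.

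**Figure D3:**
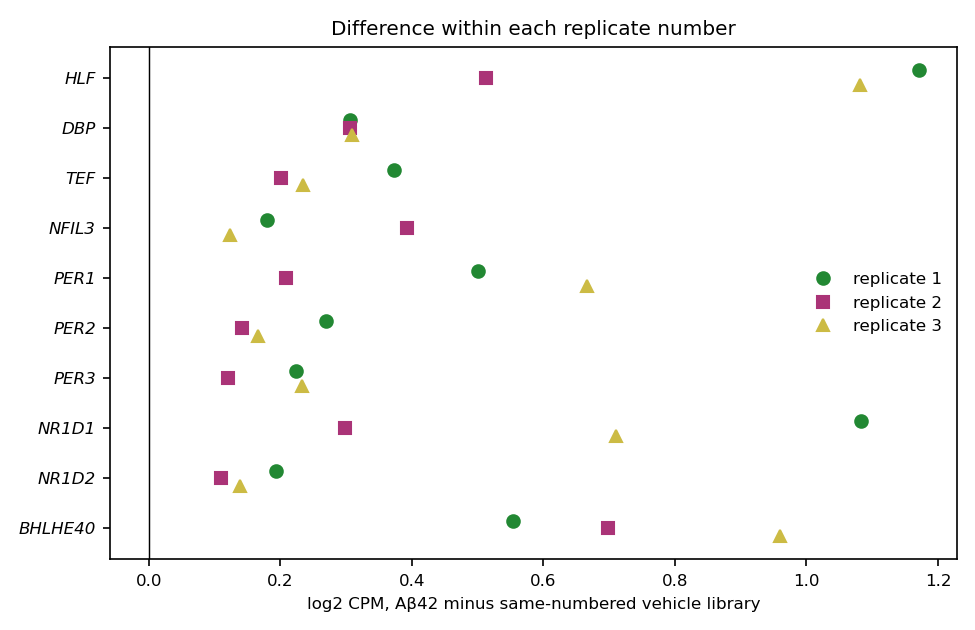
Difference in log2 CPM between the Aβ42 and vehicle libraries of the same replicate number for each gene. All 30 points lie above 0, those of HLF at 0.51 to 1.17, and the DBP points coincide near 0.31.

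The rest of the clock was read from 21 further genes, of which 20 passed the filter on low counts and were tested. Of the 20, 13 had a higher mean with Aβ42 and 7 a lower mean, and their median log2 fold change of 0.04 compares with 0.0032 for all genes and was below 0 when TPM was used, at -0.0098 with a pseudocount of 1 and -0.026 with one of 0.1. The groups did not overlap for 7, all higher, where 13.6% of all tested genes did the same. An unadjusted p-value under 0.05 was reached by 6, all higher (12.4% of all genes), and 0 passed in edgeR's test over all genes, against 6 with the replicate block, all higher (7.12%). The 6 were ARNTL, CRY1, CRY2, RORA, USP2 and NAMPT. The same 6 passed as higher without Aβ42 replicate 2, with log2 fold changes of 0.33, 0.47, 0.64, 0.63, 0.45 and 0.48 in that order (11.6% of all genes). TIMELESS passed there as lower at -0.33 (edgeR adjusted p-value 0.0142), as did 1619 of the 13842 genes.

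Among the activators of the loop, ARNTL was at 24.2, 20.3 and 22.4 CPM in vehicle and 29.4, 24.8 and 26.7 CPM with Aβ42, with no overlap and a difference of 0.27 ± 0.09 (log2; edgeR adjusted p-value 0.119, and 0.0233 with the block). Its partner CLOCK was at 61.5 ± 2.36 and 58.9 ± 3.82 CPM, and NPAS2, which can replace CLOCK in the forebrain, was at 17.0 ± 0.50 and 17.0 ± 1.65 CPM (log2 fold change 0.0002). The groups of CLOCK and of NPAS2 overlapped. The repressors CRY1 and CRY2, which act with the PER proteins, had log2 fold changes of 0.39 ± 0.09 and 0.49 ± 0.15 (edgeR adjusted p-values 0.0734 and 0.121, and 0.000941 and 0.000309 with the block). CRY1 was at 44.9, 36.4 and 43.8 CPM in vehicle and 58.6, 49.0 and 56.6 CPM with Aβ42, and CRY2 was at 56.0, 48.1 and 57.6 CPM and 81.4, 59.0 and 86.1 CPM. In both genes the groups did not overlap and replicate 2 was the lowest library of its group, as for PER1 and PER2.

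RORA, the receptor that activates the element at which NR1D1 and NR1D2 repress, was at 35.1, 26.1 and 32.1 CPM in vehicle and 52.0, 37.7 and 44.1 CPM with Aβ42. RORA had a log2 fold change of 0.52 ± 0.14 (edgeR adjusted p-value 0.0916, and 0.000249 with the block), while RORB was at 84.2 ± 2.01 and 81.8 ± 4.30 CPM (-0.04 ± 0.05). Enzymes of clock protein turnover lay close to 0: CSNK1D, CSNK1E, GSK3B, BTRC and FBXW11 had log2 fold changes from -0.04 to 0.06. The exception was the deubiquitinase USP2, itself a clock output gene, at 0.34 ± 0.12 (edgeR adjusted p-value 0.133, and 0.0410 with the block). NAMPT, the rate-limiting enzyme of NAD salvage and a known clock output, had a log2 fold change of 0.37 ± 0.10 (0.0916, and 0.000434 with the block).

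**Figure D4:**
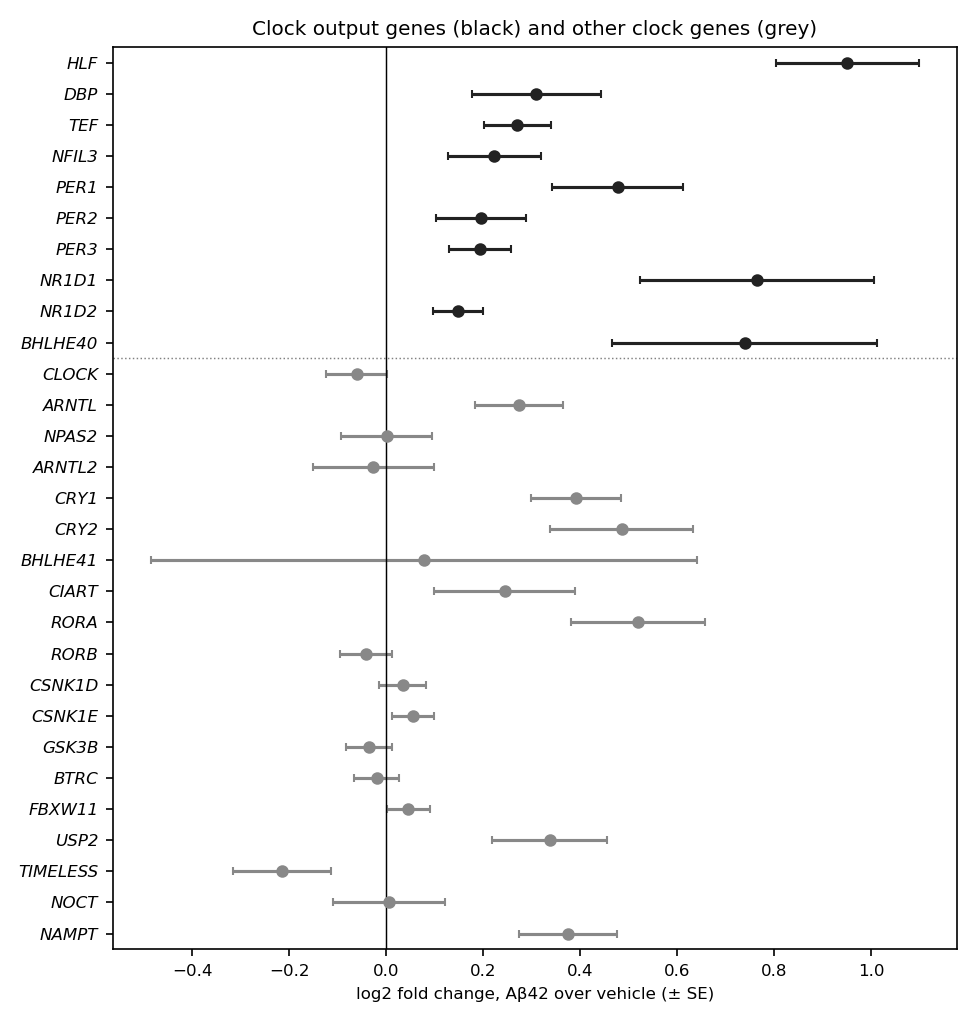
Log2 fold change of Aβ42 over vehicle ± SE from edgeR's fit for the 10 genes (black) and for other tested clock genes (grey). The 10 lie between 0.15 and 0.95, while CLOCK, NPAS2, RORB and most turnover enzymes lie near 0.

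Genes known to act below or beside the PAR bZIP factors were read from further lists. Of 5 listed PAR bZIP targets 4 were tested, all with a higher mean and a median log2 fold change of 0.12, and 0 had an unadjusted p-value under 0.05. The drug exporter ABCB1 was at 0.38 ± 0.20 with overlapping groups and was the 1 target that passed with the block (adjusted p-value 0.0296). It was at 0.46 (0.246) without Aβ42 replicate 2, where 1 of the 4 passed (PDXK, at 0.14, adjusted p-value 0.0499). In that setting 11.6% of all genes passed as higher. Pyridoxal kinase PDXK had means of 127.7 ± 4.40 and 137.5 ± 6.26 CPM without and with Aβ42, a log2 fold change of 0.11 ± 0.05. The groups of POR and ALAS1, enzymes of electron transfer to cytochromes P450 and of heme synthesis, did not overlap, with log2 fold changes of 0.13 ± 0.06 and 0.12 ± 0.06. The C/EBP family, bZIP relatives of which some but not all bind related sites, had 4 tested genes with a median of 0.41. DDIT3 was at 0.57 ± 0.13 (edgeR adjusted p-value 0.0734, and 0.000448 with the block) and CEBPA at 0.64 ± 0.23 (0.142, and 0.0236 with the block). Both passed without Aβ42 replicate 2, at 0.68 and 0.77 (edgeR adjusted p-values 0.00163 and 0.0275).

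Genes induced by glucocorticoids or cyclic AMP, signals that also act on PER1, were mixed. Of 10 glucocorticoid-induced genes 7 had a higher and 3 a lower mean, with a median log2 fold change of 0.07. TSC22D3 and FKBP5 of this list were at -0.10 ± 0.08 and -0.12 ± 0.12, and ZBTB16 was at 0.66 ± 0.18 (edgeR adjusted p-value 0.0868, and 0.0047 with the block). PDK4, a kinase that restrains pyruvate oxidation, was at 0.28 ± 0.14 with no overlap. Of 8 cyclic AMP-induced genes 6 had a higher mean (median 0.19), and the groups did not overlap for NR4A1 (0.50 ± 0.15) and RGS2 (0.24 ± 0.11), both higher, and for PDE4D (-0.18 ± 0.05), which was lower. With the replicate block 1 of the 10 glucocorticoid-induced and 2 of the 8 cyclic AMP-induced genes passed as higher (7.12% of all genes). As lower passed 1 of the 8 cyclic AMP-induced genes (7.05% of all genes). When Aβ42 replicate 2 was left out, 2 of the 10 glucocorticoid-induced genes passed, both higher, and 3 of the 8 cyclic AMP-induced genes, 2 higher and 1 lower. In that setting 11.6% of all genes passed as higher and 1619 of 13842 as lower. All 16 hypoxia-induced genes had a higher mean, with a median of 0.51. SLC2A3, a glucose transporter, was at 0.67 ± 0.18, and P4HA2, a collagen hydroxylase, at 0.39 ± 0.10, and the glycolytic enzymes ENO1 and PGK1 were at 0.49 ± 0.21 and 0.40 ± 0.18, in all 4 cases with no overlap. Of the 16, 3 had an unadjusted p-value under 0.05, 5 passed with the block (7.12% of all genes passed as higher), and 3 passed without Aβ42 replicate 2 (11.6%).

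**Figure D5:**
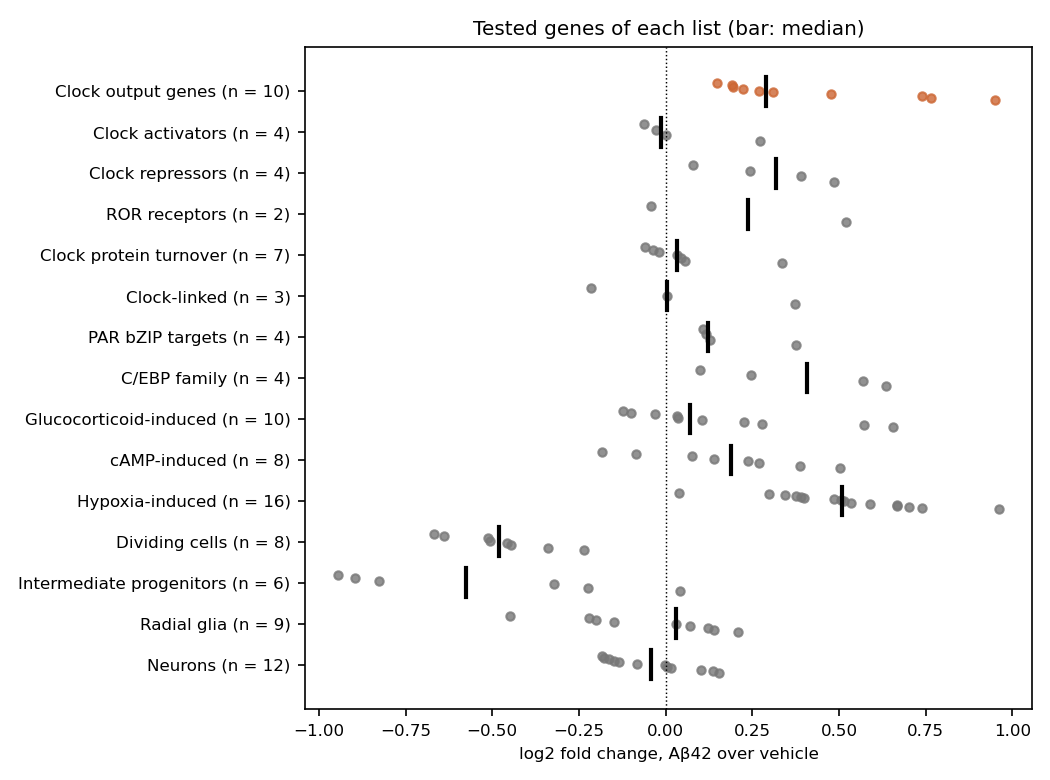
Log2 fold change of the tested genes in each list drawn, with a bar at the median, the 10 clock output genes in orange. Lists not drawn are astrocyte (median -0.60), choroid plexus (-0.49), endothelial and mesenchymal markers. The hypoxia-induced list lies to the right (median 0.51), and dividing cells (-0.48) and intermediate progenitors (-0.57) lie to the left.

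Markers of cell types moved between the same libraries. The 8 markers of dividing cells summed to 626.8, 739.7 and 668.9 CPM in vehicle and to 433.9, 574.6 and 418.3 CPM with Aβ42. Aβ42 replicates 1 and 3, which had the most HLF, had the least of these markers. As HLF was chosen by its values in these libraries, nothing is read from that opposition. All 8 had a lower mean, and 7 of them passed with the replicate block, where 7.05% of all genes passed as lower. All 8 passed without Aβ42 replicate 2, where 1619 of the 13842 genes passed as lower. For TOP2A and CENPE the log2 fold changes were -0.46 ± 0.13 and -0.51 ± 0.08. The 6 intermediate progenitor markers summed to 270.6 ± 17.0 CPM in vehicle and 204.9 ± 16.73 CPM with Aβ42. EOMES was at -0.83 ± 0.17 and PPP1R17 at -0.90 ± 0.16. The sums followed EOMES in large part, with means of 108.5 and 61.2 CPM. Of the 6, 5 had a lower mean and 1, NEUROG2, a slightly higher one (60.5 ± 3.84 and 62.2 ± 4.43 CPM, 0.04 ± 0.07). The 12 neuronal markers summed to 7532 ± 209.5 CPM and 7063 ± 166.6 CPM, where DCX was at -0.15 ± 0.06 and TBR1 at -0.18 ± 0.04. The neuronal list was mixed, with 7 lower and 5 higher means and a median of -0.04, and the synaptic gene SNAP25 was at 0.15 ± 0.06 with no overlap. The 9 radial glia markers summed to 3490 ± 44.0 CPM and 3542 ± 108.9 CPM, where VIM was at 0.12 ± 0.07 and HOPX at -0.45 ± 0.13. The 7 astrocyte markers summed to 678.9 ± 7.97 CPM and 666.8 ± 23.7 CPM, where SLC1A2 was at 0.01 ± 0.05 and S100B at -1.25 ± 0.35. SLC1A2 alone held most of both sums (604.0 and 608.9 CPM). Of the 7 astrocyte markers 5 had a lower and 2 a higher mean, with a median of -0.60. The 6 choroid plexus markers had their highest sums in the libraries numbered 2 of both groups (963.9 and 896.3 CPM). The other 4 libraries summed to 388.7 to 494.9 CPM. TTR alone held most of both high sums (871.7 and 805.8 CPM). Not every marker followed the sum: in vehicle AQP1 was highest in replicate 1 (21.9 CPM, against 17.3 CPM in replicate 2). TTR was at -0.09 ± 0.49, OTX2 at -0.66 ± 0.56 and AQP1, the 1 marker of the list with a higher mean, at 0.59 ± 0.57. Of endothelial and mesenchymal markers, CLDN5 was at -0.74 ± 0.35, DCN at -1.17 ± 0.52 and PDGFRB at 0.18 ± 0.08. The 8 microglia markers summed to at most 0.61 CPM, and 5 of them (TYROBP, TREM2, C1QA, C1QB and C1QC) had 0 counts throughout. For a count of 0, an expected count of about 3 per library (0.182 CPM) was taken as the limit. That limit covers counting error only and is not an absolute maximum. When Aβ42 replicate 2 was left out, 4 intermediate progenitor and 2 astrocyte markers passed as lower, 3 neuronal markers as lower and 1 as higher. Of radial glia markers 4 passed as lower and 1 as higher, and 0 of the choroid plexus, endothelial and mesenchymal markers passed. In that setting 11.6% of all genes passed as higher and 1619 of 13842 as lower. With the replicate block (7.05% of all genes lower), 0 markers of these lists passed as higher. As lower passed 4 intermediate progenitor, 3 astrocyte, 3 neuronal, 3 radial glia, 2 choroid plexus (CLIC6 and OTX2), 1 mesenchymal (DCN) and 0 endothelial markers. The part of these cell types in the differences of the 10 genes was not tested. The forebrain label was met by its markers, with NEUROD6 at 470.4 ± 14.98 CPM and PAX6 at 104.5 ± 7.26 CPM in vehicle.

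The genes whose pattern over the 6 libraries was most like that of HLF were RHBDL1, HAPLN3, UGT8, TFEB and DNHD1. Likeness was the root mean square difference between log2 CPM profiles centred on each gene's mean, among the 13329 tested genes averaging 1 CPM or more, and it was 0.057 for RHBDL1, 0.0997 for HAPLN3, 0.120 for UGT8, 0.125 for TFEB and 0.133 for DNHD1 on the log2 scale. UGT8, an enzyme of myelin lipid synthesis, was at 4.81, 3.95 and 4.27 CPM in vehicle and at 10.1, 6.59 and 9.60 CPM with Aβ42. TFEB, a transcription factor of lysosomal genes, was at 3.66, 3.77 and 3.54 CPM in vehicle and at 6.64, 4.69 and 6.84 CPM with Aβ42. Both had HLF's order of high Aβ42 replicates 1 and 3 and a lower replicate 2. Of the other 9 clock output genes, NR1D1 (0.219, rank 66), PER1 (0.250, rank 131) and BHLHE40 (0.283, rank 251) were nearest to HLF. Farthest was NR1D2 (0.423, rank 2415). Profiles were not scaled for the size of the difference, so likeness in part follows the log2 fold change in the contrast that chose HLF. The 3 nearest had the largest log2 fold changes of the 9 (0.76, 0.48 and 0.74) and NR1D2 the smallest (0.15).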

How the data were processed

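RNA sequencing of polyadenylated RNA was analysed in 6 organoid libraries. The authors deposited 1 table with, per gene and library, a read count and a TPM value (scaled by them for gene length and library total). Only 86.9% to 87.5% of the deposited counts in a library were whole, so they were treated as estimated counts, where the design had assumed whole counts, and rounded. Per the submitters' processing notes STAR 2.7.11b, featureCounts 2.0.6 and the GRCh38 build were used, with no role given; annotation and strand setting are not given in the sources used here.

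Genes were kept by filterByExpr of edgeR 4.0.16 and scaled by TMM. Groups were compared by edgeR's two-sided quasi-likelihood test with robust dispersion, adjusted by Benjamini-Hochberg over 13842 genes, in R 4.3.3. SE was taken as the absolute log2 fold change over the root of F. Limma 3.58.1 and DESeq2 1.42.0 served as alternatives. The test was checked on simulated data, drawn with a common dispersion for all genes, no outlying library and no pairing of replicates. The check therefore does not cover an outlying library such as Aβ42 replicate 2. Libraries differed by more than sampling noise (chi-square at least 3.16 per gene), so none was a duplicate.

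The labels do not say that replicate numbers mark a shared culture. Deviations from the group means (12186 genes averaging 50 counts or more) correlated at 0.181, 0.388 and 0.129 for the same-numbered libraries 1 to 3, all above 0.1, so the numbers were taken to pair them. This rests on the data alone, and numbers 1 and 3 correlated as well with each other (0.177 and 0.154).

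Members and lists were chosen with earlier results of these data known. Named were the 10 members, up to 4 genes per pathway list without overlap between groups (by p-value), markers with the highest level or smallest p-value, and the 5 genes nearest to HLF. CLOCK, NPAS2, RORB, PDXK, TSC22D3, FKBP5, ABCB1, SNAP25, AQP1, NEUROG2, TIMELESS, UTS2, NEUROD6, PAX6, SPHK2, THRA, the turnover enzymes and the microglia genes were named beside these after their values were seen. Some listed clock genes are not reported here by name.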

Additional observations from a re-analysis of the deposited data

How the results depend on the processing

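The added alternative, leaving out replicate 2 of both groups, was chosen after the data were seen. All 10 genes had a log2 fold change above 0 in each of the 18 alternatives, from 0.75 to 1.13 for HLF. Of all genes 0 passed in edgeR's test (3302 unadjusted), and 0 with limma-voom, non-robust dispersion, both TPM scales, a filter at a mean of 10 counts, upper-quartile or RLE factors. The counts of all genes, of the 9 genes beside HLF and of the other clock genes were in turn: replicate block 1962, 5 and 6; quality weights 2457, 6 and 6; DESeq2 804, 2 and 4; no low-count filter 360, 0 and 1; and without replicate 2 of both groups 2345, 4 and 6. Leaving out 1 library gave 0 to 3228, 0 to 7 and 0 to 7, and every count above 0 was the one that left out Aβ42 replicate 2. Unadjusted, the range was 1849 to 5141 genes. The median of the other clock genes changed sign on both TPM scales, to -0.0098 with a pseudocount of 1 and to -0.026 with 0.1, where the median of all genes was -0.040 and -0.043. From 0.039 it also moved to 0.021 with limma-voom, 0.059 without Aβ42 replicate 1 and 0.013 without Aβ42 replicate 3. The cause of these differences was not tested. Leaving out 1 library moved a member's log2 fold change by over 1.5 times for DBP and NFIL3 (vehicle replicate 2, 0.20 and 0.11) and NR1D1 (Aβ42 replicate 1, 0.50). The fold of the activator to NFIL3 ratio, which includes HLF and so follows in part from its choice, stayed within 1.09 to 1.19.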
